A study of Mus musculus with 8 samples.

Results

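The genes described here are 10 smooth muscle contractile genes of the mouse, Acta2, Actg2, Tagln, Cnn1, Smtn, Tpm2, Lmod1, Myh11, Myl9 and Myocd, taken by symbol from an RNA-seq table of 32567 genes. All 10 were in the table. A level is given in CPM, the count as a share of the library total, scaled by TMM to correct that total for differences in composition, and a gene lay above the expression limit when its log2 CPM averaged over the 4 RNA libraries exceeded 0. Of the 10 genes, 7 lay above the limit, as did 15492 of the 32567 genes of the table, while Actg2, Myh11 and Myocd lay below it. Cnn1 passed mainly through 1 library, in which its level was 6.45 CPM against 0.464 to 1.98 CPM in the other 3. The genes were chosen by their role but with these RNA-seq counts in view, in particular the high Acta2 level in that same library, so their values are a description and carry no test.

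RNA and small RNA were sequenced from mouse embryonic stem cells (ESC) and from cells differentiated out of embryoid bodies with retinoic acid (RA-DIFF), in each case for 1 wild-type line and 1 huntingtin-null line homozygous for the Hdh ex4/5 allele of the huntingtin gene Htt, to ask how loss of Htt alters the response of ESC to this morphogen. Each of the 4 conditions had 1 RNA library and 1 small RNA library, from 1 line per genotype, and the strain, sex and clone of the lines were not given in the sources used here. All cultures had been grown on irradiated mouse embryonic fibroblasts or gelatin with leukemia inhibitory factor and were then kept off feeder cells for 4 passages, and the RA-DIFF cells were dissociated with trypsin and collected soon after plating on poly-ornithine and laminin. The RNA libraries were made from poly-A RNA with a strand-specific dUTP method and read as 50 bp pairs.

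Smooth muscle cells contract when filaments of smooth muscle actin slide along filaments of smooth muscle myosin, and a set of actin-binding proteins holds and regulates the thin filament. Many genes of this apparatus are switched on by serum response factor (SRF), which binds a short element called the CArG box, together with myocardin or with the myocardin-related factors that are released when actin polymerizes. Several of the genes, Acta2 and Tagln among them, are also active in activated fibroblasts and in early mesenchyme.

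The total count was between 63617410 and 110569127 per RNA library, and 3 counts, the most that a count of 0 allows, correspond to 0.0268 to 0.0460 CPM. Htt itself was measured at 166 CPM in wild-type and 111 CPM in Htt-null ESC, but at 73.3 CPM in RA-DIFF labelled wild type and 98.7 CPM in RA-DIFF labelled Htt-null. The order followed the labels in ESC and went against them in RA-DIFF. The counts are for the whole gene, not for the altered exons. The values per condition that accompany the study follow the ESC libraries under their own labels, and in RA-DIFF each follows the library of the opposite label. The RA-DIFF libraries are therefore named by their labels throughout, and every direction between them, and every direction between RA-DIFF and ESC within a genotype, depends on those labels. With 1 library per condition there is no SD and no test that rests on replicates. Intervals given with ratios are 95% intervals that cover counting error only.

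The CArG box has a pair of C, 6 central bases that are each A or T, and a pair of G, and reads the same on both strands. It was searched for in the 250 bases before the RefSeq start of each gene, next to a CArG-like box in which 1 of the 6 central bases is G or C. RefSeq promoters (GRCm38.p6) were matched for 6 of the 10 genes, namely Acta2, Cnn1, Myl9, Tpm2, Lmod1 and Smtn, and 2 of these, Acta2 and Myl9, held either motif. Each match is shown with 10 bases on both sides because the CArG box is the element that SRF is known to bind. They are written on the strand of the gene from 5′ to 3′, with the motif in capitals. Positions are counted back from the RefSeq start.
Acta2, CArG-like, -84 to -75 (chr19:34255438-34255467, minus strand): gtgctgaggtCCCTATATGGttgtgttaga
Acta2, CArG-like, -34 to -25 (chr19:34255388-34255417, minus strand): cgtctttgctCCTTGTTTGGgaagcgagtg
Myl9, CArG, -161 to -152 (chr2:156775293-156775322, plus strand): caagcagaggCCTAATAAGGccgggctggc
Myl9, CArG-like, -99 to -90 (chr2:156775355-156775384, plus strand): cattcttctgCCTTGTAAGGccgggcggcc
Among all 32851 RefSeq promoter windows of this length, 1.47% held a CArG box, 7.24% a CArG-like box and 8.59% either. The windows of Cnn1, Tpm2, Lmod1 and Smtn held neither spelling, which says nothing about elements elsewhere in those genes. A match is a run of letters and was not tested as a binding site. Both Acta2 matches lie before the start of the gene in the deposited table, but within the first exon of longer Acta2 transcripts in GENCODE vM21.

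Acta2 encodes the smooth muscle alpha-actin of the thin filament (GRCm38 chr19:34241090-34255336, minus strand). It had 294 counts in wild-type ESC, 92 in Htt-null ESC, 4593 in RA-DIFF labelled wild type and 62554 in RA-DIFF labelled Htt-null, or 3.39, 1.41, 41.0 and 635 CPM. Both RA-DIFF libraries lay above both ESC libraries, and the one labelled Htt-null stood far above the rest. Between the RA-DIFF libraries the ratio was 15.5-fold, a log2 ratio of 3.95 (3.91 to 4.00) by the labels, and 15 of the 15492 genes above the expression limit had a higher one. With the RA-DIFF labels exchanged the ratio is -3.95 and those 15 genes have a lower one. In ESC Acta2 was 2.40-fold lower in Htt-null than in wild type (log2 ratio -1.25, -1.62 to -0.92), the opposite order of the genotypes by the RA-DIFF labels and the same order with those labels exchanged. Of the 50-base runs in Acta2 transcripts, 0.326% were shared with transcripts of other genes, mostly the cytoplasmic actin gene Actg1 and its pseudogene.

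Actg2 encodes the gamma-actin of visceral smooth muscle (chr6:83512905-83536265, minus strand). Its counts were 10 in wild-type ESC, 24 in Htt-null ESC, 17 in RA-DIFF labelled wild type and 124 in RA-DIFF labelled Htt-null, at most 1.26 CPM. RA-DIFF labelled Htt-null again had the highest value, with a log2 ratio of 2.88 (2.32 to 3.88) over the other RA-DIFF library. On the same scale the ratio of Htt-null over wild-type ESC was 1.51 (0.56 to 2.90), so the 2 smooth muscle actins stood in opposite order in ESC.

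Tagln encodes transgelin, or SM22, an actin-binding protein of smooth muscle (chr9:45929628-45936058, minus strand). Its levels were 3.09 CPM in wild-type ESC, 3.02 in Htt-null ESC, 12.3 in RA-DIFF labelled wild type and 161 in RA-DIFF labelled Htt-null. The ESC libraries were within counting error of each other (log2 ratio -0.03, -0.31 to 0.24), whereas the RA-DIFF libraries stood 13.1-fold apart (log2 ratio 3.71, 3.63 to 3.79). An antisense gene, Gm48529, and Pcsk7 overlap Tagln on the other strand and share 58.3% of its 50-base runs. The strand option of the counting was not named beyond a statement that programs were left at their defaults. Reads of Tagln and of these genes may not have been kept apart, which was not tested. Pcsk7 had 772, 607, 2639 and 2837 counts in the same order of libraries, with a log2 ratio of 0.29 between the RA-DIFF libraries. Most of the overlap is with Gm48529, which shares 1241 of the 1988 exonic bases of Tagln against 108 for Pcsk7. The Pcsk7 counts therefore say little about reads from Gm48529.

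Cnn1 encodes calponin 1, which binds actin and restrains myosin ATPase (chr9:22099281-22109630, plus strand). It was measured at 0.876 CPM in wild-type ESC, 1.98 in Htt-null ESC, 0.464 in RA-DIFF labelled wild type and 6.45 in RA-DIFF labelled Htt-null. The RA-DIFF library labelled wild type was thus the lowest of the 4 and the one labelled Htt-null the highest, 13.9-fold apart (log2 ratio 3.73, 3.39 to 4.23). In ESC the level was 2.26-fold higher in Htt-null (log2 ratio 1.15, 0.75 to 1.60), the same direction as in RA-DIFF by the labels and the opposite one with the RA-DIFF labels exchanged, where the ratio is -3.73.

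Smtn encodes smoothelin, a cytoskeletal protein whose longer and shorter forms are found in contractile smooth muscle (chr11:3517523-3540612, minus strand). Its levels were 78.1 CPM in wild-type ESC, 67.8 in Htt-null ESC, 26.6 in RA-DIFF labelled wild type and 47.9 in RA-DIFF labelled Htt-null. Unlike the levels of Acta2 and Tagln, both RA-DIFF levels of Smtn lay below both ESC levels. The RA-DIFF libraries differed 1.80-fold (log2 ratio 0.85, 0.78 to 0.92), the smallest such ratio among the 7 genes above the expression limit. Gm11946, on the other strand, shares most of the 9.46% of Smtn 50-base runs found in other genes and had 43, 23, 4 and 19 counts.

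Tpm2 encodes beta-tropomyosin, which lies along the actin filament (chr4:43514711-43523765, minus strand). It was measured at 16.5 CPM in wild-type ESC, 14.8 in Htt-null ESC, 7.58 in RA-DIFF labelled wild type and 29.7 in RA-DIFF labelled Htt-null. The RA-DIFF libraries lay on either side of the ESC libraries and were 3.92-fold apart (log2 ratio 1.97, 1.86 to 2.08).

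Lmod1 encodes leiomodin 1, which nucleates actin filaments in smooth muscle (chr1:135324807-135368065, plus strand). Its levels were 4.16 CPM in wild-type ESC, 5.38 in Htt-null ESC, 0.857 in RA-DIFF labelled wild type and 3.90 in RA-DIFF labelled Htt-null. Here the RA-DIFF library labelled wild type stood alone, below the other 3, and the RA-DIFF libraries differed 4.55-fold (log2 ratio 2.16, 1.86 to 2.52).

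Myl9 encodes the regulatory light chain that is phosphorylated to start contraction (chr2:156775420-156781658, plus strand). It had 2.81 CPM in wild-type ESC, 2.54 in Htt-null ESC, 8.59 in RA-DIFF labelled wild type and 78.8 in RA-DIFF labelled Htt-null. Its order was that of Acta2 in RA-DIFF, 9.17-fold apart (log2 ratio 3.19, 3.10 to 3.29), while the ESC libraries were within counting error (log2 ratio -0.14, -0.44 to 0.15).

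Myh11 encodes the smooth muscle myosin heavy chain, the most specific of these markers of a mature smooth muscle cell (chr16:14194527-14291408, minus strand). It had 32 counts in wild-type ESC, 28 in Htt-null ESC, 45 in RA-DIFF labelled wild type and 59 in RA-DIFF labelled Htt-null, that is 0.369, 0.429, 0.402 and 0.599 CPM. All 4 libraries were low and close together. The log2 ratio between the RA-DIFF libraries was 0.55 (-0.01 to 1.17), so that a difference was not detectable at this depth. The light chain and the heavy chain of smooth muscle myosin therefore had unlike patterns in the same libraries.

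Myocd encodes myocardin, the SRF coactivator of cardiac and smooth muscle (chr11:65176561-65269989, minus strand). It had 4 counts in wild-type ESC, 0 in Htt-null ESC, 7 in RA-DIFF labelled wild type and 48 in RA-DIFF labelled Htt-null, where its level of 0.487 CPM was still below the expression limit. The ratio between the RA-DIFF libraries was 2.59 on the log2 scale (1.81 to 4.35), with all 4 values low. Against the floor of 3 counts in Htt-null ESC, the level in RA-DIFF labelled Htt-null was at least 10.6-fold higher.

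**Figure D1:**
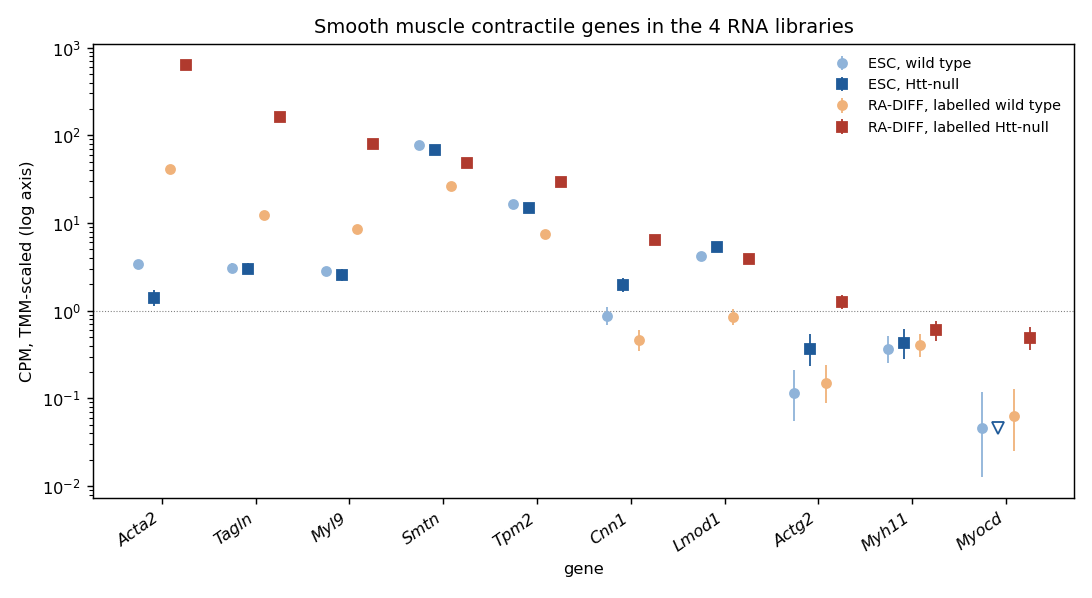
Levels of the 10 genes in the 4 RNA libraries, in TMM-scaled CPM on a log axis, with 95% counting intervals as vertical bars; the open triangle marks the floor of 3 counts for Myocd at 0 counts in Htt-null ESC and the dotted line 1 CPM. For all 10 genes the RA-DIFF library labelled Htt-null lies above the RA-DIFF library labelled wild type, from 635 against 41.0 CPM for Acta2 to 0.599 against 0.402 CPM for Myh11.

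Summed over the 10 genes, the level was 109 CPM in wild-type ESC, 97.7 in Htt-null ESC, 98.0 in RA-DIFF labelled wild type and 966 in RA-DIFF labelled Htt-null. The sum was thus similar in 3 libraries, but its makeup was not, since Acta2 took 3.10%, 1.44%, 41.8% and 65.8% of it in the same order. Without Acta2 the sums were 106, 96.3, 57.0 and 330 CPM, so that the library labelled Htt-null also stood out in the sum of the other 9 genes.

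Levels of different genes were compared per kilobase of exon. In both ESC libraries Smtn was the highest, at 17.8 and 15.5 CPM per kilobase in wild type and Htt-null, followed by Tpm2 at 5.66 and 5.10 and Myl9 at 2.42 and 2.19. Tagln and Acta2, next in wild-type ESC at 1.55 and 1.54, were within counting error of each other. In RA-DIFF labelled wild type Acta2 led at 18.7 CPM per kilobase, ahead of Myl9 at 7.40, and Tagln at 6.19 and Smtn at 6.07 could not be ordered. In RA-DIFF labelled Htt-null the order was Acta2 at 289, Tagln at 81.2, Myl9 at 67.8, Smtn at 10.9, Tpm2 at 10.2 and Cnn1 at 2.36 CPM per kilobase. Below these, Lmod1 at 0.988 and Actg2 at 0.809 overlapped in counting error, as did Myh11 at 0.0788 and Myocd at 0.0759. The RNA of smooth muscle alpha-actin was thus abundant in this library, and those of the smooth muscle myosin heavy chain and of myocardin were near the bottom of the range.

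A gene was counted as higher or lower when its log2 ratio passed 0.75 in either direction and it lay above the expression limit. Between the RA-DIFF libraries all 7 genes above the limit were higher in the one labelled Htt-null, at a median log2 ratio of 3.19, while 11.7% of all genes tested were higher, 8.99% were lower and their median was -0.01. This contrast was known when the genes were proposed, so the count describes the choice. When an exact test at an assumed dispersion of 0.1 was added, Smtn was lost and 6 were called, against 5.26% and 3.40% of all genes higher and lower, whereas at 0.01 the same 7 were called, against 11.5% and 8.41%. Between the ESC libraries 1 gene, Cnn1, was higher and 1, Acta2, was lower in Htt-null, against 5.14% and 3.47% of all genes, and the medians were -0.14 for the 7 genes and -0.04 for all genes. With the test at 0.1 neither Cnn1 nor Acta2 was called in ESC, and at 0.01 both were.

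From ESC to RA-DIFF in the cells labelled wild type, Acta2, Tagln and Myl9 were higher and Cnn1, Tpm2, Lmod1 and Smtn lower. These are 3 and 4 of the 7 genes, against 33.9% and 26.1% of all genes, and the medians were -0.89 and 0.12. With the test at 0.1 Cnn1 and Tpm2 were lost, and at 0.01 the same 4 were lower. In the cells labelled Htt-null, Acta2, Tagln, Cnn1, Myl9 and Tpm2 were higher and none of the 7 was lower, against 34.3% and 24.8% of all genes, and the medians were 1.69 and 0.17. Here the test at 0.1 lost Tpm2, and that at 0.01 lost none. The log2 ratio of RA-DIFF over ESC was 3.59 in cells labelled wild type and 8.79 in cells labelled Htt-null for Acta2. It was 1.98 and 5.73 for Tagln and 1.60 and 4.94 for Myl9. For Cnn1 the corresponding values were -0.89 and 1.69, and for Tpm2 -1.12 and 1.00. For Lmod1 they were -2.25 and -0.46, and for Smtn -1.55 and -0.50. With either label, then, the genes of alpha-actin, transgelin and the regulatory light chain were above their ESC level in RA-DIFF cells and smoothelin was below it. The comparisons share libraries, and no overlap between them was counted.

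**Figure D2:**
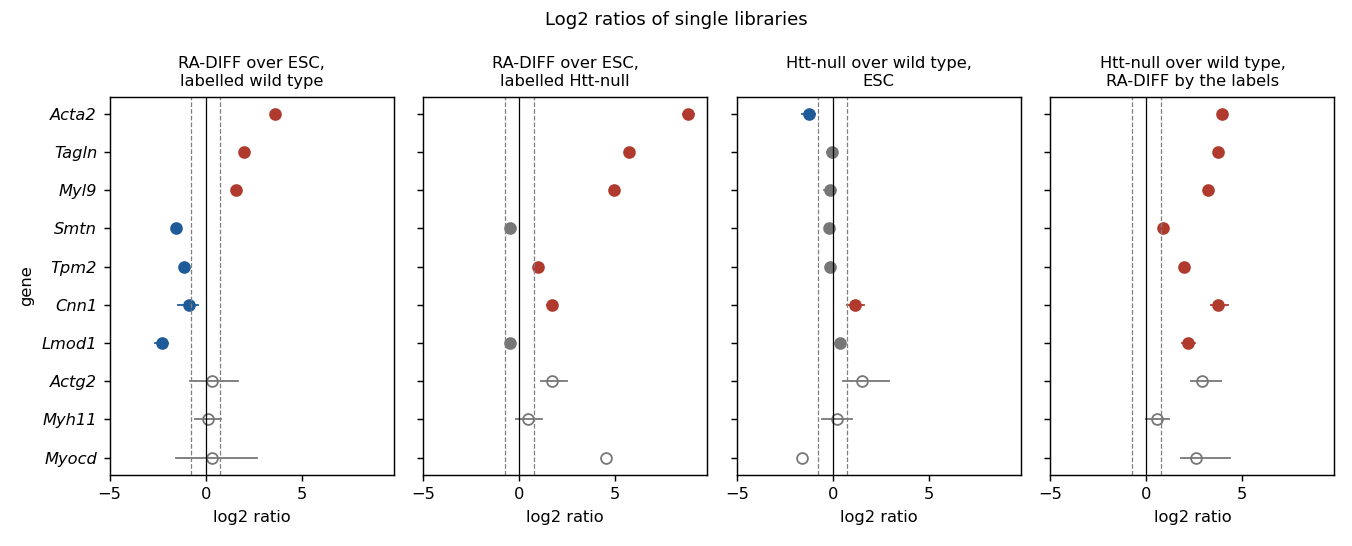
Log2 ratios of the 10 genes in 4 comparisons of single libraries, with 95% counting intervals as horizontal bars where neither library has 0 counts and dashed lines at 0.75 in both directions. Red is higher, blue lower, grey neither, and open circles lie below the expression limit; in the right panel all 7 filled points are to the right of the dashed line, from 0.85 for Smtn to 3.95 for Acta2.

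Most of these proteins have relatives outside smooth muscle, many of them used in nearly all cells, and these were measured in the same libraries. They are called non-muscle counterparts here, although not all fit that name, such as Tpm1, which also has smooth muscle forms. Of 17 counterparts above the limit, 7 were higher in RA-DIFF labelled Htt-null than in the other RA-DIFF library and 0 lower, at a median log2 ratio of 0.68, against the 11.7% and 8.99% of all genes given above, which are also the background of the lists that follow. The cytoplasmic actins Actb and Actg1 had log2 ratios of 0.50 and 0.28 where Acta2 had 3.95. Tagln2 had 1.71 and the neuronal Tagln3 -0.50 where Tagln had 3.71. Among the calponins, Cnn2 had 2.52 and Cnn3 0.19 against 3.73 for Cnn1. The light chain genes Myl12a and Myl12b, close relatives of Myl9, had 1.11 and 0.03 against 3.19, and Myl6, an essential light chain, had 1.10. The nonmuscle heavy chain genes Myh9, Myh10 and Myh14 had 1.10, 0.11 and 1.53, next to 0.55 for Myh11. Tpm1, which also has smooth muscle forms, had 2.25, Tpm3 0.36 and Tpm4 0.43, next to 1.97 for Tpm2. The tropomodulin genes Tmod2 and Tmod3 had 0.74 and 0.68, next to 2.16 for their relative Lmod1, and Tmod1 was below the limit. This contrast was known when the genes were proposed, so their order against the counterparts describes that choice. Acta2, Actg2, Tagln, Cnn1, Myl9 and Lmod1 had a ratio farther above 0 than each of their counterparts, whereas Myh11 and Tpm2 did not. With the RA-DIFF labels exchanged every one of these ratios changes sign, so that the same 6 genes have a lower ratio than each of their counterparts, and the 7 counterparts are lower instead of higher.

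**Figure D3:**
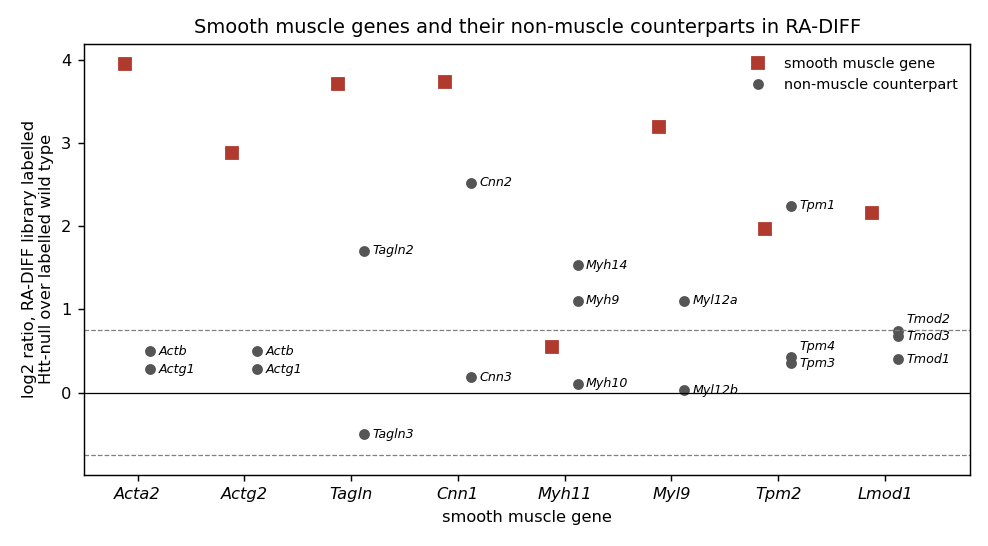
Log2 ratio between the RA-DIFF libraries, labelled Htt-null over labelled wild type, for 8 smooth muscle genes (red squares) and for their non-muscle counterparts (grey circles), with dashed lines at 0.75 in both directions; Actg2, Myh11 and Tmod1 are below the expression limit. Acta2 at 3.95 stands well apart from Actb at 0.50 and Actg1 at 0.28, while Tpm2 at 1.97 lies next to Tpm1 at 2.25, which also has smooth muscle forms.

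The share of each family made up by the smooth muscle form was taken per kilobase. Acta2 and Actg2 together were 0.352% of the actin pool they form with Actb and Actg1 in wild-type ESC, 0.144% in Htt-null ESC, 1.49% in RA-DIFF labelled wild type and 14.9% in RA-DIFF labelled Htt-null. Tagln was 1.35%, 1.40%, 6.80% and 40.9% of the transgelin pool in the same order. Myl9 was 3.09%, 2.66%, 10.7% and 42.1% of the light chain pool. In these 3 families the smooth muscle form was thus a small part of the pool in ESC and a large one in RA-DIFF labelled Htt-null. Cnn1 stayed at or below 0.766% of the calponin pool in every library, and Myh11 at or below 0.0952% of the heavy chain pool. The share of Tpm2 in the tropomyosin pool was 6.75%, 5.77%, 1.21% and 2.86%, so it was lower in both RA-DIFF libraries than in ESC although the level of Tpm2 itself was highest in RA-DIFF labelled Htt-null. Tpm1 is counted with the non-muscle part of this pool although it also has smooth muscle forms, so this is the share of Tpm2 alone.

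**Figure D4:**
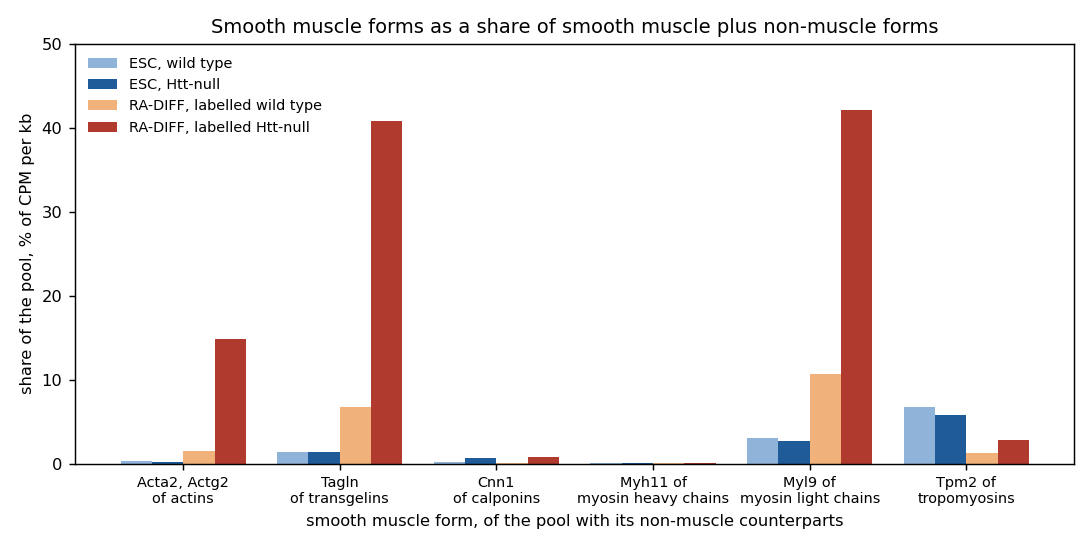
Share of the smooth muscle form in the pool it forms with its non-muscle counterparts, in % of CPM per kilobase, for 6 families in the 4 RNA libraries. Tagln and Myl9 reach 40.9% and 42.1% of their pools and the smooth muscle actins 14.9% in RA-DIFF labelled Htt-null, while Cnn1 and Myh11 stay below 1% in all 4. Tpm1, which also has smooth muscle forms, is counted as a counterpart of Tpm2.

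Further genes of smooth muscle contraction and adhesion were less uniform. Of 20 such genes, all above the limit, 8 were higher and 4 lower in RA-DIFF labelled Htt-null than in the other RA-DIFF library, at a median log2 ratio of 0.67. Kcnmb1, the beta subunit of the large-conductance calcium-activated potassium channel of smooth muscle, had the highest ratio, 4.32, from 33, 23, 16 and 322 counts. It passed the expression limit through RA-DIFF labelled Htt-null alone, at 3.27 CPM against 0.143 to 0.381 CPM in the other 3, so that its ratio had to be high. Itga8, the integrin alpha 8 subunit of mesenchyme and smooth muscle, followed at 2.34, and Cald1, caldesmon, and Vcl, vinculin, had 1.48 and 1.31. The lower end was held by Ppp1r14a, an inhibitor of myosin phosphatase, at -1.50 and Pgm5, a protein of adherens junctions, at -1.26. Ppp1r14a had 846, 499, 27 and 7 counts, so it passed the limit through ESC and was low in both RA-DIFF libraries. Mylk, the kinase of the myosin light chain, had -1.05, from 192, 80, 2599 and 1104 counts. The ratios of the substrate Myl9 and of its kinase Mylk thus had opposite signs, whichever way the libraries are labelled. From ESC to RA-DIFF, 8 of the 20 were higher and 5 lower in cells labelled wild type, and 12 higher and 4 lower in cells labelled Htt-null. In Htt-null over wild-type ESC 1 was higher and 4 were lower. The shares of all genes given above, 33.9% and 26.1% for RA-DIFF over ESC labelled wild type, 34.3% and 24.8% labelled Htt-null and 5.14% and 3.47% for ESC, are the background of these counts and of those of the next lists. All counts between the RA-DIFF libraries, here and in the next lists, are by the labels, and with these exchanged the higher and lower genes of each list change places.

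Among regulators of the smooth muscle genes, 14 of 18 were above the limit, and 3 were higher and 0 lower in RA-DIFF labelled Htt-null, at a median log2 ratio of 0.28. Srf had 0.51, and the myocardin-related factor genes Mkl1 and Mkl2 had -0.05 and 0.46. None of these 3 passed 0.75, and Foxf1, a regulator of visceral smooth muscle, was below the limit at 2 to 21 counts. The highest were Tbx18, a T-box factor of mural and epicardial lineages, at 2.74, which passed the expression limit mainly through its 12.9 CPM in RA-DIFF labelled Htt-null, and Tgfb1i1, a coactivator also called Hic-5, at 2.14. The lowest were Csrp2 at -0.17 and Foxo4 at -0.15. From ESC to RA-DIFF, 6 of the 14 were higher and 5 lower in cells labelled wild type, and 6 higher and 4 lower in cells labelled Htt-null, while in Htt-null over wild-type ESC 1 was higher and 2 lower.

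SRF targets that are used in most cells formed another list. Of 12 above the limit, 11 were higher and 0 lower in RA-DIFF labelled Htt-null, at a median log2 ratio of 1.09, or 0 higher and 11 lower with the labels exchanged. The matricellular genes Ctgf and Cyr61 were the highest, at 2.69 and 2.63, and the immediate early genes Egr1 and Fos had 1.91 and 1.84, with Egr2 and Fosb below the limit. The lowest were Ier2 at 0.58, which alone did not pass 0.75, and Zyx, zyxin, at 0.76. In Htt-null over wild-type ESC 0 of the 12 were higher and 2 lower, and from ESC to RA-DIFF 4 were higher and 5 lower in cells labelled wild type and 6 higher and 1 lower in cells labelled Htt-null.

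RA-DIFF cells are a mixture, and in a bulk library a larger share of expressing cells and more RNA per cell cannot be told apart. Markers of fibroblasts and mesenchyme moved with the contractile genes between the RA-DIFF libraries. Of 14, all above the limit, 13 were higher and 0 lower in RA-DIFF labelled Htt-null (0 and 13 with the labels exchanged), at a median log2 ratio of 1.71, from Dcn at 2.58 and Mmp2 at 2.45 to Twist1 at 1.11 and Fbln1 at 0.73. The collagen genes Col1a1, Col1a2, Col3a1 and Col5a1 had 2.06, 1.64, 1.34 and 1.34. Their summed level was 1491 CPM in wild-type ESC, 1339 in Htt-null ESC, 880 in RA-DIFF labelled wild type and 2616 in RA-DIFF labelled Htt-null, and much of it in ESC was Fn1, with 111858 and 76485 counts. Lum was at 0 in wild-type ESC and Dcn at 0 in Htt-null ESC. In ESC 6 of the 14 were lower in Htt-null and 1 was higher. Of the contractile genes in that comparison, Acta2 was lower (-1.25), Cnn1 higher (1.15), and Tagln (-0.03) and Myl9 (-0.14) were within counting error. The part of these cells in the Acta2, Tagln and Myl9 values was not tested.

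Neuron markers stood in the opposite order to the contractile genes between these 2 libraries. Of 12, 0 were higher and 9 lower in RA-DIFF labelled Htt-null, at a median log2 ratio of -1.25, or 9 higher and 0 lower with the labels exchanged. Nefl, with 669, 547, 8773 and 1922 counts, and Rbfox3 at -1.82 were the lowest, Tubb3 and Dcx had -1.69 and -1.42, and Map2 at -0.48 and Syt1 at 0.33 were the highest. Their summed level was 3033 CPM in RA-DIFF labelled wild type and 1435 in RA-DIFF labelled Htt-null, against 294 and 334 in wild-type and Htt-null ESC. Neural progenitor markers were split, with 2 higher and 3 lower of 10 and summed levels of 4863 and 6396 CPM in RA-DIFF labelled wild type and Htt-null. Slc1a3 and Vim were the highest at 1.17 and 0.76, Hes5 and Sox1 the lowest at -1.57 and -0.89, and Nes, Sox2 and Pax6 had 0.53, -0.01 and -0.79. Pluripotency markers summed to 5647 and 4802 CPM in ESC and to 68.0 and 31.0 CPM in RA-DIFF, where 8 of 10 were lower and 1, Tbx3, higher in the library labelled Htt-null. Fgf4 and Zfp42 had -3.74 and -3.54, Pou5f1, Nanog and Esrrb -3.22, -2.19 and -2.66, Klf5 0.02 and Tbx3 2.04. No marker of these 3 lists was at 0 in any library. The part of these differences in cell makeup was not tested either.

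Markers of striated muscle had similar summed levels in both RA-DIFF libraries. The 15 cardiac markers summed to 15.7 CPM in the library labelled wild type and 17.7 CPM in the one labelled Htt-null, and the 14 skeletal markers found in the table to 12.1 CPM in both. Of 9 cardiac markers above the limit 2 were higher and 1 lower, with Myl4 at 0.94 and Mybpc3 and Ryr2 at -0.84 and -0.70. The lower one, Mybpc3, had 234, 231, 4 and 1 counts. It passed the limit through ESC, and its ratio between the RA-DIFF libraries rests on very few counts. Myh6 and Myh7 had 0.11 and 0.60, and Nkx2-5 and Tnnt2 were below the limit. Like Kcnmb1, Actc1 and the skeletal Myh8 passed the limit through RA-DIFF labelled Htt-null, at 3.53 and 3.31 CPM. Of 5 skeletal markers above the limit 2 were higher, Myh8 at 1.21 and Myh3 at 0.87, and 1 lower, Mylpf at -1.74, while Myod1, Myf5, Myog and Myf6 were below it. Actc1, the cardiac alpha-actin, had 1, 11, 183 and 348 counts, a log2 ratio of 1.10 between the RA-DIFF libraries, and Acta1, the skeletal alpha-actin, had 4, 0, 321 and 258 counts, a log2 ratio of -0.13. Of the 6 actin genes the smooth muscle gene Acta2 had the ratio farthest from 0. Its high level in RA-DIFF labelled Htt-null was in view when the genes were chosen, so this place describes the choice. Myf5, Tnni2 and Tnnc2 were at 0 in RA-DIFF labelled wild type, Myod1 and Tnnt3 in wild-type ESC, and Pln in both ESC libraries.

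**Figure D5:**
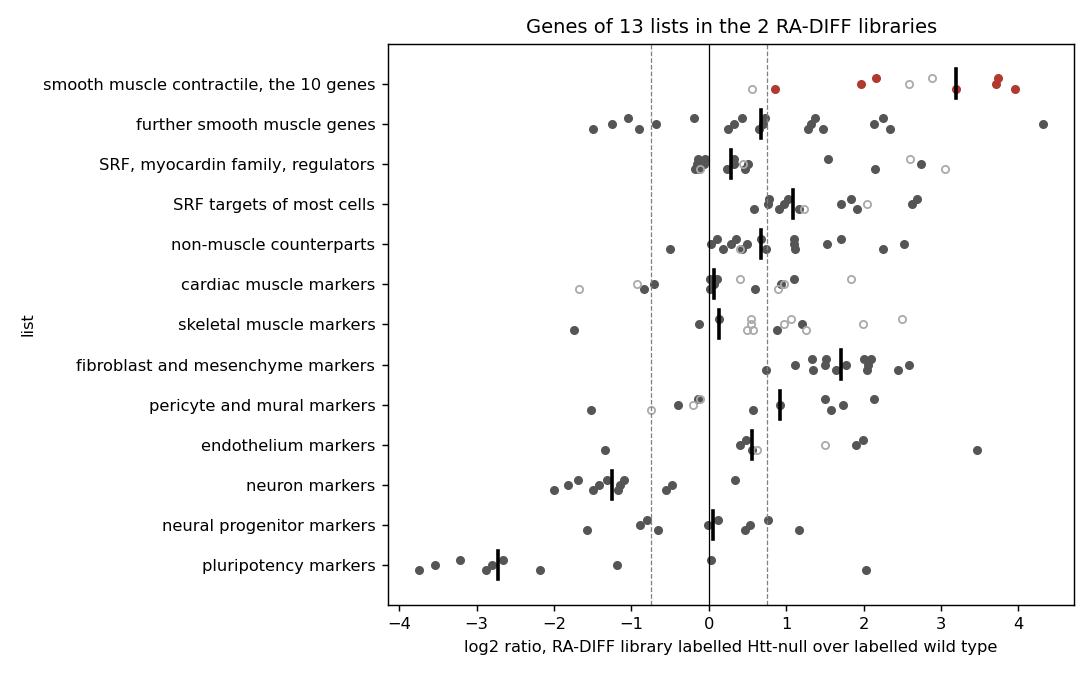
Log2 ratio between the RA-DIFF libraries, labelled Htt-null over labelled wild type, for every gene of 13 lists, with filled points above and open points below the expression limit, black ticks at the median of the filled points and dashed lines at 0.75 in both directions. The 7 contractile genes (red) have a median of 3.19, SRF targets of most cells 1.09, fibroblast markers 1.71, neuron markers -1.25 and pluripotency markers -2.73.

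Genes with the nearest pattern to the mean of the 7 contractile genes over the 4 RNA libraries were sought among 15483 genes, by the Euclidean distance of log2 CPM centred on the mean of each gene. The nearest was Vwa5b1 at a distance of 0.17, followed by Cnn2 at 0.31, Sulf1 at 0.32, Gpc4 at 0.35, Tpm1 at 0.44, Mfsd7c at 0.44, Timp3 at 0.45 and Dhrs3 at 0.45. Of the 8, Cnn2 and Tpm1 are counterparts of the contractile genes, Sulf1 and Gpc4 act on or carry heparan sulfate at the cell surface, and Timp3 inhibits matrix metalloproteinases. The contractile genes themselves were farther from their own mean, at 1.62 for Cnn1 and 4.73 for Acta2, which shows how much they differed among themselves. A distance over 4 libraries is a description.

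In the small RNA libraries, miRNAs of smooth and striated muscle were a readout that had not been used to propose the genes. Of 16 looked for, 11 were in the table and 7 above the limit. Their levels depended on the scaling more than those of the mRNAs. In place of TMM, library size alone moved the median log2 ratio of all miRNAs by -1.15 for RA-DIFF over ESC in cells labelled wild type, -1.85 in cells labelled Htt-null, 0.23 for the genotypes in ESC and -0.48 in RA-DIFF. Whether the RA-DIFF small RNA labels are right was not tested. In RA-DIFF labelled Htt-null over labelled wild type, 1 of the 7 was higher and 2 were lower, against 14.7% and 11.9% of 687 miRNAs, and in Htt-null over wild-type ESC 0 were higher and 2 lower, against 23.7% and 15.0%. In RA-DIFF over ESC 3 were higher and 3 lower with either label, against 34.6% and 32.0% for wild type and 30.7% and 40.5% for Htt-null. These counts are with TMM. By library size they became 2 higher and 4 lower for wild type, against 17.8% and 57.5% of all miRNAs, and 1 higher and 5 lower for Htt-null, against 12.8% and 74.2%. By library size 1 was higher and 1 lower in ESC, against 30.9% and 8.88%, and 1 higher and 2 lower in RA-DIFF, against 7.28% and 32.8%.

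miR-143-3p, with miR-145a-5p the characteristic miRNA of smooth muscle, had 114517 counts in wild-type ESC, 80585 in Htt-null ESC, 6508 in RA-DIFF labelled wild type and 13347 in RA-DIFF labelled Htt-null. Its highest levels were thus in ESC, unlike those of Acta2 and Tagln. The log2 ratio between the RA-DIFF libraries was 1.60 with TMM and 1.11 by library size, and RA-DIFF over ESC was -3.97 and -1.74 with TMM in cells labelled wild type and Htt-null, and -5.13 and -3.61 by library size. miR-145a-5p, from the same precursor transcript, had 846, 446, 56 and 64 counts, with a log2 ratio between the RA-DIFF libraries of 0.73 with TMM, 0.26 by library size, 0.81 by median of ratios and 0.76 by TMM over these 2 libraries, so that whether it passed 0.75 depended on the scaling. Their host transcript Mir143hg had 0, 0, 4 and 3 counts in the RNA libraries.

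miR-208b-3p and miR-499-5p, which lie within the myosin heavy chain genes Myh7 and Myh7b, were the ones lower in RA-DIFF labelled Htt-null, and are printed to show how much of the seed they have in common. The seed, bases 2 to 8, is in capitals, and the sequences are from RefSeq (GRCm38.p6).
miR-208b-3p (chr14:54975710-54975731, minus strand): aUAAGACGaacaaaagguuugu
miR-499-5p (chr2:155622893-155622913, plus strand): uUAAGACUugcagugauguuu
The seeds differ only in their last base. miR-208b-3p had 13, 13, 76 and 13 counts, a log2 ratio of -1.88 between the RA-DIFF libraries, and miR-499-5p had 487, 281, 423 and 119, a log2 ratio of -1.26. With TMM, miR-208b-3p passed the limit mainly through RA-DIFF labelled wild type, at 4.25 CPM against 0.591 to 1.07 CPM elsewhere. Its low ratio therefore follows in part from that limit. In the RNA libraries the host gene Myh7b had 1821, 1404, 372 and 215 counts, a log2 ratio of -0.60 in RA-DIFF, and Myh7 had 65, 111, 193 and 258 counts, a log2 ratio of 0.60. Neither host passed 0.75, and the labels of the RNA and small RNA libraries may not correspond in RA-DIFF. The skeletal and cardiac miR-133a-3p had 4, 8, 87 and 52 counts and the skeletal miR-206-3p, below the limit, 0, 0, 15 and 19.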

How the data were processed

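RNA and small RNA were each sequenced in 4 libraries, 1 per condition. For RNA-seq the authors aligned reads to GRCm38 with TopHat 2.0.14, assigned them to genes of a GENCODE annotation with HTSeq 0.6.1 and deposited raw counts. For small RNA the authors trimmed reads with cutadapt 1.3, mapped them to miRBase with BWA 0.7.5a-r418, kept unique alignments with SAMtools 0.1.18 and deposited raw counts per mature miRNA. The strand option was not named, and the study states that programs were left at their defaults where nothing else was given. Whether both mates of a pair were counted was not stated in the sources used here. Columns were assigned to samples by name and none was left unused.

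From the counts, TMM factors and average log2 CPM were computed with edgeR 4.0.16 in R 4.3.3, and log2 ratios with a prior count of 2. The limits, a log2 ratio past 0.75 and an average log2 CPM above 0, follow the methods of the study. Those methods also give edgeR with a dispersion of 0.1 and a p limit of 0.05, without naming the test. With 1 library per condition the dispersion cannot be estimated, so no test entered the main calls. An exact test with an unadjusted p limit of 0.05 was run at assumed dispersions of 0.1 and 0.01 as an alternative only. Counting intervals are exact at the 95% level and treat reads as independent molecules. Lengths per kilobase are union exon lengths from GENCODE vM21, in which 32304 of the 32567 genes were found by identifier. Python 3.11.15 served for the tables (pandas 2.3.3, numpy 2.4.6), the intervals (scipy 1.17.1) and the plots (matplotlib 3.10.9). The ratios were checked on simulated data.

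The 10 genes and all lists were chosen with earlier results of these data known. Named are the 10 genes, their counterparts, the 2 highest and 2 lowest genes of each list between the RA-DIFF libraries, the first 4 genes of most lists, and the 8 nearest patterns. Outside that rule, Fn1, the genes at 0 and the genes that share runs or host a miRNA were named after their values were seen. Depth was 63617410 to 110569127 counts for RNA and 11976744 to 25656673 for small RNA.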

Additional observations from a re-analysis of the deposited data

Results flagged for a closer look

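For 3 of the genes the ratio passed 0.75 in opposite directions in comparisons of the same kind. Each rests on single libraries, and the differences between the ratios were not tested. For Acta2 the genotypes differed by a log2 ratio, Htt-null over wild type, of -1.25 at the ESC stage and of 3.95 between the RA-DIFF libraries by their labels. With the RA-DIFF labels exchanged, the order that Htt follows, the latter is -3.95, so that both ratios are below 0 and the opposition is gone. For Cnn1 the genotype ratios, 1.15 in ESC and 3.73 in RA-DIFF by the labels, then become opposite, with -3.73 in RA-DIFF. The log2 ratio of RA-DIFF over ESC was -0.89 in cells labelled wild type and 1.69 in cells labelled Htt-null for Cnn1, and -1.12 and 1.00 for Tpm2. With the labels exchanged these are 2.85 in wild type and -2.04 in Htt-null for Cnn1, and 0.85 and -0.97 for Tpm2, so that each pair stays opposite with its signs turned.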

How the results depend on the processing

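Exchanging the labels of the RA-DIFF RNA libraries, the assignment that Htt and the values accompanying the study follow, gave 0 higher and 7 lower between the RA-DIFF libraries, 5 higher and 0 lower for RA-DIFF over ESC in wild type, and 3 higher and 4 lower in Htt-null, against 8.99% and 11.7%, 34.4% and 25.2%, and 33.6% and 25.5% of all genes. The log2 ratios between the RA-DIFF libraries became -3.95 for Acta2, -3.71 for Tagln, -3.73 for Cnn1, -3.19 for Myl9, -1.97 for Tpm2, -2.16 for Lmod1 and -0.85 for Smtn. Those of RA-DIFF over ESC became 2.85 in wild type and -2.04 in Htt-null for Cnn1, and 0.85 and -0.97 for Tpm2. If the RA-DIFF small RNA labels, which were not checked, were exchanged as well, the ratios would be -1.60 for miR-143-3p, 1.88 for miR-208b-3p and 1.26 for miR-499-5p. The exact test at an assumed dispersion of 0.1 left 2 lower, Lmod1 and Smtn, for RA-DIFF over ESC labelled wild type, and 0 higher and 0 lower between the genotypes in ESC, 6 higher between the RA-DIFF libraries (without Smtn) and 4 higher for RA-DIFF over ESC labelled Htt-null (without Tpm2), against 17.3% of all genes lower, 0.981% and 0.645% in ESC, 5.26% and 24.0%. At a dispersion of 0.01 none of these calls was lost. A log2 limit of 1 also lost Smtn between the RA-DIFF libraries and Cnn1 for RA-DIFF over ESC labelled wild type. Without the expression limit 2 were higher, Actg2 and Cnn1, and 2 lower, Acta2 and Myocd, of the 10 in Htt-null ESC, against 16.0% and 9.04% of all genes. Library size alone turned miR-208b-3p to -0.89 for RA-DIFF over ESC labelled Htt-null. With the length of the longest transcript 2 genes, Myh11 and Myocd, changed places per kilobase. The counts of higher and lower genes stayed within 1.5-fold with library size, median-of-ratios or pairwise TMM scaling, a log2 limit of 1, a dispersion of 0.01 and a prior count of 0.5. No paired analysis was possible because each condition had 1 library and the labels give no replicate numbers. For the same reason no library could be left out, and DESeq2 was not run. All ratios compare single libraries, and at this depth the difference of Myh11 between the RA-DIFF libraries was within counting error.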

Other observations

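Genes of the vessel wall and of endothelium did not share one direction between the RA-DIFF libraries. Of 9 pericyte and mural markers above the limit, 5 were higher and 1 lower in RA-DIFF labelled Htt-null, at a median log2 ratio of 0.91 and summed levels of 258 CPM (labelled wild type) and 377 CPM (labelled Htt-null). Vtn, vitronectin, had 0, 5, 3027 and 11703 counts in wild-type ESC, Htt-null ESC, RA-DIFF labelled wild type and RA-DIFF labelled Htt-null, a log2 ratio of 2.14 in RA-DIFF, and Mcam, an adhesion molecule of mural and endothelial cells, had 1.73. Cspg4 had 1.50, and Pdgfrb, the receptor that defines pericytes, 0.57. Ndufa4l2 had the lowest ratio, -1.53, followed by Kcnj8 at -0.39, and Rgs5, a pericyte marker, was below the limit at 20 to 57 counts. Of 7 endothelial markers above the limit, 3 were higher and 1 lower, with a median of 0.56 and summed levels of 27.1 and 93.3 CPM. Emcn, endomucin, had 0, 0, 110 and 1084 counts, a log2 ratio of 3.46, and passed the limit mainly through its last value, while Kdr, a receptor of vascular endothelial growth factor, had 2.00. Tek had 1.90 and Tie1 0.41. Pecam1, which is also expressed in ESC, had 15620, 13855, 374 and 128 counts and a log2 ratio of -1.35. Cdh5, the cadherin that defines endothelium, was below the limit at 9 to 208 counts.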
